A study of Homo sapiens with 6 samples.

Results

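Phosphoinositide 3-kinases (PI3Ks) were described here through 10 genes, the class I regulatory subunits PIK3R1, PIK3R2 and PIK3R3, the class I catalytic subunits PIK3CA, PIK3CB and PIK3CD, the class II enzymes PIK3C2A and PIK3C2B, and the class III pair PIK3C3 and PIK3R4. They were taken by gene name from the deposited transcript table, where they account for 19 of 29091 listed transcripts and 10 of 11848 gene names. The genes were chosen by earlier results of the same comparison, in which the gene sum of PIK3R1 was higher in shPCAT1 samples, so the values of PIK3R1 between the groups describe the choice and support nothing beyond it. The study measured RNA by sequencing in LNCaP-AI, an androgen-independent line derived from the human prostate cancer line LNCaP by long culture without androgen. It compared 3 samples in which an shRNA targeted PCAT1, a long non-coding RNA (shPCAT1), with 3 samples given a scramble shRNA (shSCR), to ask how gene expression differs when PCAT1 is depleted. All 6 samples share the LNCaP-AI background. The labels do not say that replicates came from separate cultures or separate shRNA transfections, so the error behind each p-value is that among these samples and may be of technical origin. PCAT1 itself was not analysed here, and the knockdown was therefore not checked.

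Class I PI3Ks phosphorylate a membrane lipid at the plasma membrane to give PIP3, which recruits kinases such as AKT. A regulatory subunit holds the catalytic subunit stable and inactive until it binds a phosphorylated receptor or adaptor. Class II enzymes act mainly in endocytic membranes, and the class III kinase VPS34, encoded by PIK3C3, makes the lipid that marks endosomes and autophagosomes, bound to its partner VPS15, encoded by PIK3R4. PIK3R1 encodes 3 regulatory proteins from separate start sites, p85α and the shorter p55α and p50α, which share the part that binds the catalytic subunit.

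The starts of the PIK3R1 transcripts are shown because its transcript values are given by start site below. No transcript or share of PIK3R1 passed the test there. Each sequence is a RefSeq promoter window of 300 bases, 250 before and 50 after an annotated start, and was placed on chromosome 5 of GRCh37 (plus strand) by its single exact match there. CG dinucleotides are in capitals. The first window spans the listed starts of PIK3R1-001 and PIK3R1-016 (both 724 residues, p85α), the second that of PIK3R1-002 (424 residues, p50α) and the third that of PIK3R1-003 (454 residues, p55α). In the second window the RefSeq start lies 151 bases after the listed start, so much of this window is inside the listed transcript. Of 4 PIK3R1 windows, the one at chr5:67588155-67588454, whose start is 1940 bases after the listed start of PIK3R1-003, is not shown.
p85α start, chr5:67511334-67511633: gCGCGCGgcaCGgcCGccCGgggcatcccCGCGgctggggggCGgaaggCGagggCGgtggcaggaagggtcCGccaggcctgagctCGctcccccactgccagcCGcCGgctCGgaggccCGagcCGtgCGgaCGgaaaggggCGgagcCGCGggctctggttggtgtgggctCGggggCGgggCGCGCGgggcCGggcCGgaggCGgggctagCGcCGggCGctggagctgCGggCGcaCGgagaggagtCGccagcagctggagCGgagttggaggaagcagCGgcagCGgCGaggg
p50α start, chr5:67584097-67584396: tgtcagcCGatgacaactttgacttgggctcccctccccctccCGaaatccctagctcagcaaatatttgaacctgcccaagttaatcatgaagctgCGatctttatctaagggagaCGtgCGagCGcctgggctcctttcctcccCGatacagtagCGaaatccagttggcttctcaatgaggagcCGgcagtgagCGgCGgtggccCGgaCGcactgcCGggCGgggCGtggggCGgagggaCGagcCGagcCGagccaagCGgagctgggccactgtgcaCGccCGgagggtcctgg
p55α start, chr5:67586242-67586541: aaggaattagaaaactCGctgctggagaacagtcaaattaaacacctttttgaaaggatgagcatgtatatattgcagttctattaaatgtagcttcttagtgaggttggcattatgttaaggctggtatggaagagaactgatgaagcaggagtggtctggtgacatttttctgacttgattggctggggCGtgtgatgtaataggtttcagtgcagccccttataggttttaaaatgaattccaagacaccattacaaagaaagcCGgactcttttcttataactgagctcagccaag
The p85α window held 42 CG dinucleotides at 80.0% GC, the p50α window 23 at 62.3% GC and the p55α window 3 at 40.0% GC. Of 34796 RefSeq windows of the same length, 5.86% held at least 42 CG dinucleotides, 35.8% at least 23 and 81.7% at least 3. Motifs were searched on both strands, with overlaps counted. The GC box GGGCGG occurred 5 times in the p85α window, 2 times in the p50α window and 0 times in the p55α window, and 44.9% of all windows held it. CCAAT occurred 1 time in the p55α window and 0 times in the other two (34.6% of all windows). TATAAA (11.6% of all windows) and the FOXO motif GTAAACA (3.42%) had 0 matches in each. These counts describe the letters of each window and not the use of a start.

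One library stood apart before any comparison was made. On log2(FPKM + 1), where FPKM is a fragment count scaled by transcript length and library size, shSCR replicate 3 correlated with the other libraries at 0.809 to 0.845 across genes, while the other 5 correlated with each other at 0.910 to 0.946. Its difference from the mean of the other 2 shSCR libraries was larger for genes richer in GC (Spearman's rho 0.581 across 10596 genes, which are not independent replicates). Changes of the member genes are therefore given with and without it, and those of other genes where the value or the call moves. The defining luminal prostate genes, among them KLK3 and HOXB13, were listed for 8 of 8 and summed to 1241 to 1382 FPKM in shPCAT1 samples and 1441 to 1561 FPKM in shSCR samples. Of the fibroblast list 1 of 4 was listed, COL1A1, at 2.27 to 4.12 FPKM in shPCAT1 samples and 5.94 to 12.3 FPKM in shSCR samples, and of the leukocyte list 1 of 3, CD68, at 2.58 to 15.2 FPKM in shPCAT1 samples and 5.14 to 21.1 FPKM in shSCR samples. Their part in the results below was not tested.

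The 10 genes spanned a wide range of levels. By the mean of their gene sums, the FPKM added over all listed transcripts of a gene, PIK3R2 ranked 1 in both groups, at 29.5 ± 2.06 FPKM in shPCAT1 samples and 39.0 ± 14.4 FPKM in shSCR samples (SD, n = 3 each). PIK3CA ranked 10 in both, at 2.45 ± 0.52 FPKM in shPCAT1 samples and 2.05 ± 0.73 FPKM in shSCR samples. PIK3R1 ranked 2 among the 10 in shPCAT1 samples and 8 in shSCR samples, or 7 when shSCR replicate 3 was left out. In shPCAT1 samples PIK3R2, next above it, lay higher without overlap, and PIK3R3, next below it, and PIK3CB overlapped with it. Its rank of 2 rests on shPCAT1 replicate 3, where PIK3R3 stood at 8.15 FPKM. In shPCAT1 replicates 1 and 2 PIK3R3 stood at 24.6 and 24.2 FPKM, above every PIK3R1 value. In shSCR samples PIK3C2B and PIK3R4 overlapped with PIK3R1, as did PIK3C2A through replicate 3 alone (5.78 FPKM), and PIK3C3 lay below it. Gene sums were compared by limma on log2(FPKM + 1) over 10825 genes, with Benjamini-Hochberg adjustment over all of them and genes with an adjusted p up to 0.05 were counted as called. In that fit 1 of the 10 members, PIK3R1, was higher in shPCAT1 samples and 0 lower. Of all genes 0.878% were called (0.333% higher and 0.545% lower). As the genes were chosen for PIK3R1, this count is a description. The 2 groups did not overlap for 3 of 10 members, all higher in shPCAT1 samples, against 32.5% of all genes (14.8% higher and 17.7% lower). PIK3R1 is among these 3 and also enters the member medians that follow. The median log2 change was 0.17 over the members and -0.05 over all genes tested. Without shSCR replicate 3 these medians were -0.008 and -0.010, and after a correction for GC content 0.16 and 0.0019.

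**Figure D1:**
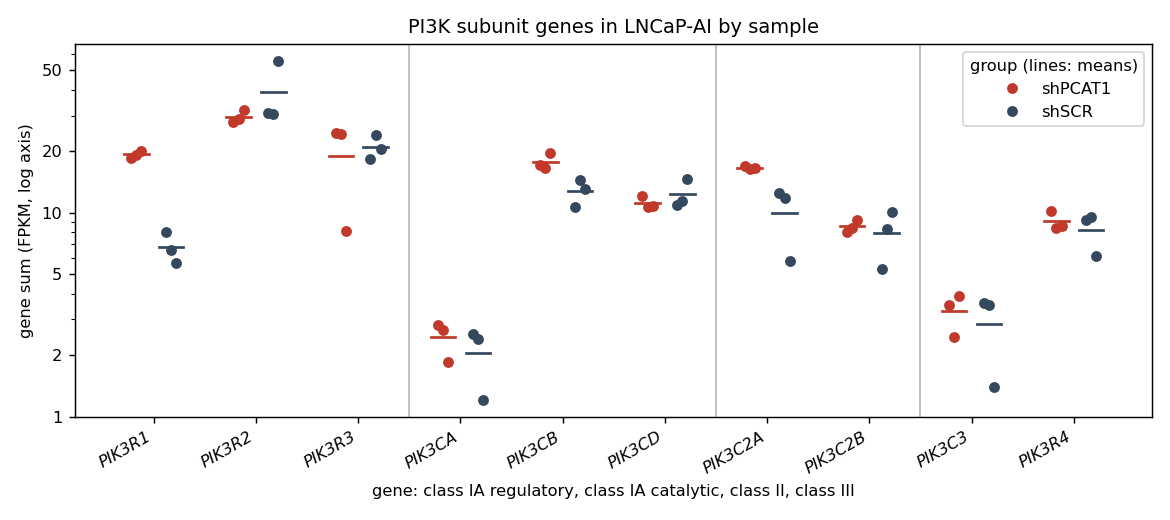
Gene sums of the 10 PI3K subunit genes in FPKM on a log axis, with 1 point per sample, the mean as a line, shPCAT1 in red left of shSCR in dark blue, and classes separated by vertical lines. PIK3R1 lies between 18.7 and 20.1 FPKM in shPCAT1 samples and between 5.68 and 8.06 FPKM in shSCR samples, and in 5 genes the lowest point of shSCR is its replicate 3.

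PIK3R1, the source of p85α and its short forms, had gene sums of 18.7, 19.2 and 20.1 FPKM in shPCAT1 replicates 1 to 3 and of 8.06, 6.55 and 5.68 FPKM in shSCR replicates 1 to 3. The 3 shPCAT1 samples lay close together and far above every shSCR sample. The mean was 2.86 times as high in shPCAT1 samples, a log2 change of 1.40 (SE 0.17, 95% interval 0.99 to 1.81, limma adjusted p = 0.0343). As the gene was chosen for this difference, the value is a description. Without shSCR replicate 3 the log2 change was 1.30 (limma adjusted p = 0.0153) and the ratio of means 2.64, and after a correction for GC content 1.18 (limma adjusted p = 0.0204). The call, but not the direction, was lost when any of the other 5 libraries was left out (limma adjusted p from 0.0769 to 0.218).

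All 4 listed PIK3R1 transcripts had a higher mean in shPCAT1 samples, and none passed the test at the transcript level, where 0.0977% of 20474 transcripts did (0.0586% higher and 0.0391% lower). PIK3R1-003, the p55α transcript (chr5:67586465-67594411 of hg19, plus strand), stood at 3.52, 5.18 and 2.73 FPKM in shPCAT1 replicates 1 to 3, against 0.713, 0.323 and a listed 0 in shSCR replicates 1 to 3. PIK3R1-002, the p50α transcript (chr5:67584196-67594411), stood at 7.08, 8.11 and 7.39 FPKM in shPCAT1 samples, against 4.13, 2.61 and 1.67 FPKM in shSCR samples. For these short forms the groups were apart, with the lowest shPCAT1 sample above the highest shSCR sample, against 22.5% of all transcripts without overlap (11.3% higher and 11.2% lower). Both are parts of the PIK3R1 gene sum that chose the genes, so their separation is a description. The log2 change of PIK3R1-003 was 1.84 (SE 0.34, limma adjusted p = 0.216) and that of PIK3R1-002 was 1.21 (SE 0.31, limma adjusted p = 0.377). PIK3R1-003 was listed through its level in shPCAT1 samples, since its shSCR mean of 0.346 FPKM is below the 0.5 FPKM that every listed transcript reached in at least 1 group.

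The long forms overlapped between the groups. PIK3R1-001 (chr5:67511548-67597649), the main p85α transcript, stood at 6.28, 3.57 and 8.62 FPKM in shPCAT1 samples, against 2.997, 3.61 and 2.59 FPKM in shSCR samples (log2 change 0.76, SE 0.34, limma adjusted p = 0.538). PIK3R1-016 (chr5:67511604-67594581), which encodes the same number of residues from a nearby start, stood at 1.78, 2.35 and 1.32 FPKM in shPCAT1 samples, against 0.220, a listed 0 and 1.43 FPKM in shSCR samples (log2 change 0.96, SE 0.43, limma adjusted p = 0.538). shPCAT1 replicate 2 was the lowest of its group for PIK3R1-001 and the highest for the other 3 transcripts. When the p85α transcripts were added, the sums were 8.07, 5.93 and 9.94 FPKM in shPCAT1 samples and 3.22, 3.61 and 4.02 FPKM in shSCR samples. The p50α and p55α transcripts together gave 10.6, 13.3 and 10.1 FPKM in shPCAT1 samples and 4.85, 2.93 and 1.67 FPKM in shSCR samples. Neither sum overlapped between the groups, and both are parts of the gene sum that chose the genes.

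**Figure D2:**
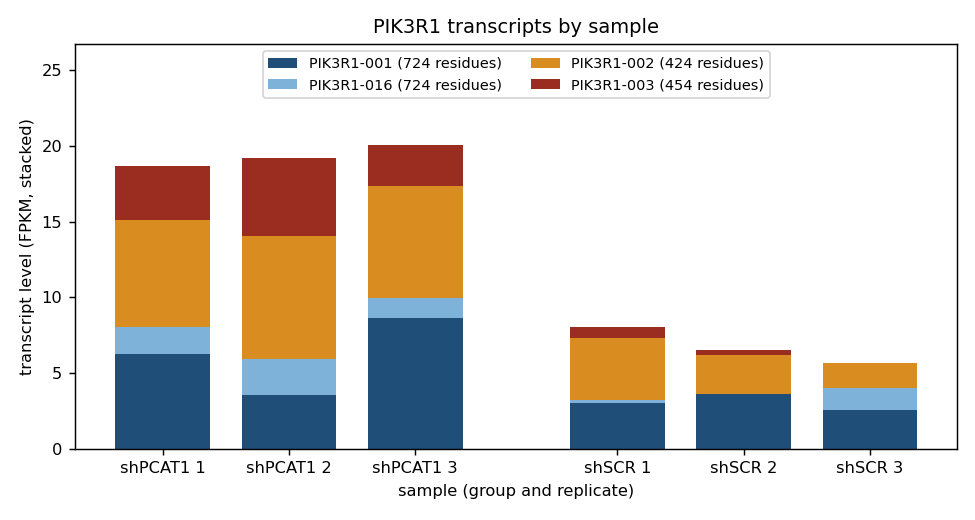
Level of each listed PIK3R1 transcript in FPKM, stacked for each of the 6 samples, with shPCAT1 on the left and shSCR on the right. The p55α transcript PIK3R1-003 is 2.73 to 5.18 FPKM in shPCAT1 samples and at most 0.713 FPKM in shSCR samples, and the full height is the gene sum.

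Expressed as a share of the gene sum, the composition of PIK3R1 was spread more widely. PIK3R1-003 held 18.9, 27.0 and 13.6% of PIK3R1 in shPCAT1 samples and 8.85, 4.94 and 0% in shSCR samples. The groups did not overlap for this share, but the transcript was listed through its shPCAT1 level, so this is a description. The difference was 15.2 percentage points (limma adjusted p = 0.791, on the arcsine of the square root of 24244 shares). Of these shares 0.0536% were called (0.033% higher and 0.0206% lower). PIK3R1-002 held 39.0 ± 2.82% in shPCAT1 samples and 40.1 ± 11.0% in shSCR samples, and PIK3R1-001 held 31.7 ± 12.3% in shPCAT1 samples and 46.0 ± 9.01% in shSCR samples (SD, n = 3 each). Both short forms together held 58.8 ± 9.51% in shPCAT1 samples and 44.7 ± 15.4% in shSCR samples, or 52.5% in shSCR samples without replicate 3, and overlapped. The 4 transcripts share their 3′ exons and the reads were short and single-end, so reads in those exons could be assigned to a transcript only by estimation, and shares are less certain than the gene sum.

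PIK3R2 and PIK3R3, which encode p85β and p55γ, were called in neither direction. PIK3R2 (1 listed transcript, PIK3R2-001) stood at 27.9, 28.8 and 31.8 FPKM in shPCAT1 samples and at 30.8, 30.7 and 55.6 FPKM in shSCR samples. Only shSCR replicate 3 lay away from the rest. The log2 change was -0.34 (SE 0.26, 95% interval -0.97 to 0.30, limma adjusted p = 0.519), -0.06 without shSCR replicate 3, and 0.13 after the GC correction, which turned its sign. PIK3R2 had the highest GC content of the members, 64.1%. An annotated gene model on the same strand, AC007192.4, overlaps it and was listed at 0.207 to 0.272 FPKM in shPCAT1 samples and 0.240 to 1.96 FPKM in shSCR samples, so reads of the 2 genes may be divided uncertainly.

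PIK3R3 stood at 24.6, 24.2 and 8.15 FPKM in shPCAT1 samples and at 18.4, 24.1 and 20.5 FPKM in shSCR samples. A single library, shPCAT1 replicate 3, was low. The log2 change was -0.27 (SE 0.43, 95% interval -1.32 to 0.77, limma adjusted p = 0.748), 0.22 without that library and -0.29 without shSCR replicate 3. In the same library the leading transcript PIK3R3-001 held 52.8% of the gene and PIK3R3-201, with the same 461 residues, held 47.2%, whereas PIK3R3-001 held 82.6 to 99.6% in the other 5 libraries. PIK3R3-001 itself averaged 16.0 ± 10.3 FPKM in shPCAT1 samples and 19.6 ± 1.95 FPKM in shSCR samples (SD, n = 3 each).

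Within the class I regulatory genes the share held by PIK3R1 lay apart between the groups, while the total overlapped. Together the 3 genes summed to 71.1, 72.3 and 60.0 FPKM in shPCAT1 samples and to 57.2, 61.3 and 81.8 FPKM in shSCR samples, with overlap. PIK3R1 made up 26.3, 26.6 and 33.4% of that sum in shPCAT1 samples and 14.1, 10.7 and 6.95% in shSCR samples. PIK3R2 made up 44.03 ± 7.78% in shPCAT1 samples and 57.3 ± 9.46% in shSCR samples, and PIK3R3 27.2 ± 11.8% in shPCAT1 samples and 32.1 ± 7.11% in shSCR samples (SD, n = 3 each). These shares contain the PIK3R1 value that chose the group and are given as a description.

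Among the class I catalytic genes, PIK3CB had the highest mean in both groups and was the one whose groups did not overlap, while in shSCR samples PIK3CB and PIK3CD overlapped in level. It encodes p110β, which is found in most tissues and can also be activated through G protein-coupled receptors. Its gene sum was 17.2, 16.5 and 19.6 FPKM in shPCAT1 samples and 10.6, 14.6 and 13.0 FPKM in shSCR samples. Every shPCAT1 sample exceeded every shSCR sample, but the change did not pass the test over all genes (log2 change 0.46, SE 0.17, 95% interval 0.04 to 0.88, limma adjusted p = 0.261). It was 0.48 without shSCR replicate 3 (limma adjusted p = 0.151) and 0.20 after the GC correction (limma adjusted p = 0.656).

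For PIK3CB 3 transcripts were listed, and the estimates exchanged between a pair of them from library to library. PIK3CB-001 (chr3:138372860-138553594 of hg19, minus strand) stood at 6.35, 11.6 and 5.24 FPKM in shPCAT1 samples and at 5.98, 8.82 and a listed 0 FPKM in shSCR samples. PIK3CB-201 (chr3:138371541-138478201) stood at 6.89, a listed 0 and 7.22 FPKM in shPCAT1 samples, against a listed 0, a listed 0 and 8.29 FPKM in shSCR samples. Both encode 1070 residues, and wherever one was listed at 0 the other carried the level of the pair. Their sum was 13.2, 11.6 and 12.5 FPKM in shPCAT1 samples and 5.98, 8.82 and 8.29 FPKM in shSCR samples, without overlap. PIK3CB-003, the remaining transcript, stood at 3.99, 4.95 and 7.15 FPKM in shPCAT1 samples and at 4.64, 5.74 and 4.75 FPKM in shSCR samples, with overlap (log2 change 0.05, SE 0.27). No share of a PIK3CB transcript passed the test.

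**Figure D3:**
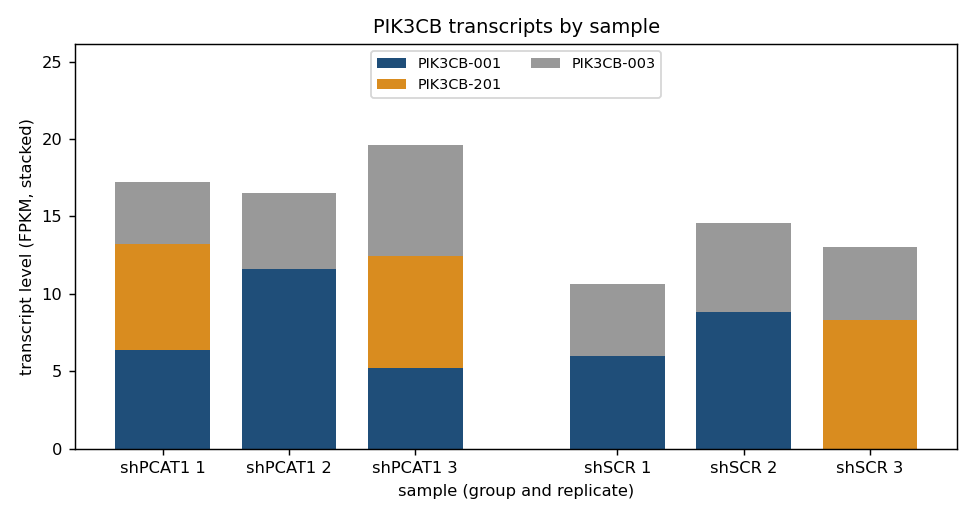
Level of the 3 listed PIK3CB transcripts in FPKM, stacked for each of the 6 samples, shPCAT1 left of shSCR. PIK3CB-201 is listed at 0 in shPCAT1 replicate 2 and shSCR replicates 1 and 2, and PIK3CB-001 is listed at 0 in shSCR replicate 3, while their sum varies less than either.

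PIK3CD, which encodes p110δ, the form best known from leukocytes, stood at 12.1, 10.7 and 10.8 FPKM in shPCAT1 samples and at 10.9, 11.4 and 14.6 FPKM in shSCR samples (log2 change -0.12, SE 0.17, 95% interval -0.53 to 0.29, limma adjusted p = 0.730), with a change of 0.0029 without shSCR replicate 3 and 0.19 after the GC correction. PIK3CD-001 held 92.7 ± 7.78% of it in shPCAT1 samples and 93.2 ± 6.95% in shSCR samples (SD, n = 3 each). Of the leukocyte markers PTPRC and CD3E were not listed and CD68 was, at 2.58 to 15.2 FPKM in shPCAT1 samples and 5.14 to 21.1 FPKM in shSCR samples. Their part in the PIK3CD level was not tested.

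PIK3CA, which encodes p110α, the subunit most often mutated in carcinomas, was the lowest member, with 2.83, 2.66 and 1.85 FPKM in shPCAT1 samples and 2.53, 2.40 and 1.21 FPKM in shSCR samples. The groups overlapped (log2 change 0.20, SE 0.26, 95% interval -0.43 to 0.82, limma adjusted p = 0.697), and the sign turned without shSCR replicate 3 (-0.02) and after the GC correction (-0.21). The 3 catalytic genes together summed to 32.2, 29.9 and 32.3 FPKM in shPCAT1 samples and to 24.1, 28.4 and 28.8 FPKM in shSCR samples. PIK3CB made up 56.5 ± 3.78% of them in shPCAT1 samples and 46.9 ± 3.83% in shSCR samples, and PIK3CD 35.7 ± 2.11% in shPCAT1 samples and 45.4 ± 5.15% in shSCR samples (SD, n = 3 each). The ratio of regulatory to catalytic sums was 2.21, 2.42 and 1.86 in shPCAT1 samples and 2.38, 2.16 and 2.83 in shSCR samples, with overlap.

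Of the class II genes, PIK3C2A was called or not depending on a single library. It encodes PI3K-C2α, which acts in clathrin-mediated endocytosis and in cilia. Its one listed transcript, PIK3C2A-001 (chr11:17108119-17191288 of hg19, minus strand), stood at 16.9, 16.3 and 16.6 FPKM in shPCAT1 samples and at 12.5, 11.8 and 5.78 FPKM in shSCR samples. The groups were apart, and shSCR replicate 3 was lowest. With all 6 samples the log2 change was 0.74 (SE 0.29, 95% interval 0.04 to 1.45, limma adjusted p = 0.275). Without shSCR replicate 3 the change was smaller and its error smaller still, 0.42 (SE 0.07, limma adjusted p = 0.0407), so the gene was called higher in that fit, where 7.93% of 10726 genes were called. With the GC correction added to that fit the log2 change was 0.26 (limma adjusted p = 0.101). PIK3C2A has a GC content of 37.1%, against a median of 48.5% for the genes tested.

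PIK3C2B, the PI3K-C2β gene, stood at 8.06, 8.37 and 9.25 FPKM in shPCAT1 samples and at 5.32, 8.35 and 10.1 FPKM in shSCR samples, with overlap (log2 change 0.14, SE 0.24, 95% interval -0.45 to 0.72, limma adjusted p = 0.779). The change was 0.31 without shSCR replicate 3 and 0.35 after the GC correction. PIK3C2B-001, with 1634 residues, held 61.9 ± 11.1% in shPCAT1 samples and 62.0 ± 4.94% in shSCR samples (SD, n = 3 each). PIK3C2B-003, a shorter transcript, held 25.3, 24.7 and 31.9% in shPCAT1 samples and 43.1, 33.2 and 37.56% in shSCR samples, apart but short of the test (limma adjusted p = 0.791). PIK3C2B-201, with 1606 residues, was listed at 1.61 and 1.23 FPKM in shPCAT1 replicates 2 and 3 and at 0 in the other 4 libraries. This transcript was also listed through its shPCAT1 level, and it counts in the gene sum behind the PIK3C2B-003 shares. Apart from PIK3R1-003, which was listed through its shPCAT1 level, PIK3C2B-003 was the member transcript whose shares did not overlap between groups, against 14.1% of all shares (8.12% higher and 5.93% lower).

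The class III pair showed no separation. PIK3C3 (VPS34) stood at 3.53, 2.47 and 3.89 FPKM in shPCAT1 samples and at 3.62, 3.52 and 1.40 FPKM in shSCR samples (log2 change 0.20, SE 0.32, 95% interval -0.57 to 0.98, limma adjusted p = 0.745), and the change was -0.11 without shSCR replicate 3 and -0.10 after the GC correction. PIK3R4 (VPS15) stood at 10.2, 8.45 and 8.58 FPKM in shPCAT1 samples and at 9.19, 9.49 and 6.11 FPKM in shSCR samples (log2 change 0.14, SE 0.21, 95% interval -0.36 to 0.64, limma adjusted p = 0.736), and the change was -0.04 without shSCR replicate 3. In both genes shSCR replicate 3 was the lowest library. The PIK3R4 level was 2.84 ± 0.61 times that of PIK3C3 in shPCAT1 samples and 3.20 ± 1.02 times in shSCR samples (SD, n = 3 each).

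The library of shSCR replicate 3 moved with GC content among the members as it did across all genes. Its difference from the other shSCR libraries was 0.83 on the log2 scale for PIK3R2 and 0.53 for PIK3C2B, with GC contents of 64.1 and 54.0%, and -0.95 for PIK3C2A and -0.93 for PIK3C3, with GC contents of 37.1 and 38.3%. Pearson's r between GC content and this difference was 0.885 over the 10 genes, which share the libraries. For PIK3R1, at 40.4% GC, the difference was -0.31, and its part in the change between the groups was not tested. Without this library 2 of 10 members were called higher, PIK3R1 and PIK3C2A, and 0 lower, against 3.65% of genes higher and 4.29% lower. After the GC correction 1 was, PIK3R1, against 0.462% of genes higher and 0.746% lower. PIK3R1 enters both counts through the choice of the genes, so they are a description.

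**Figure D4:**
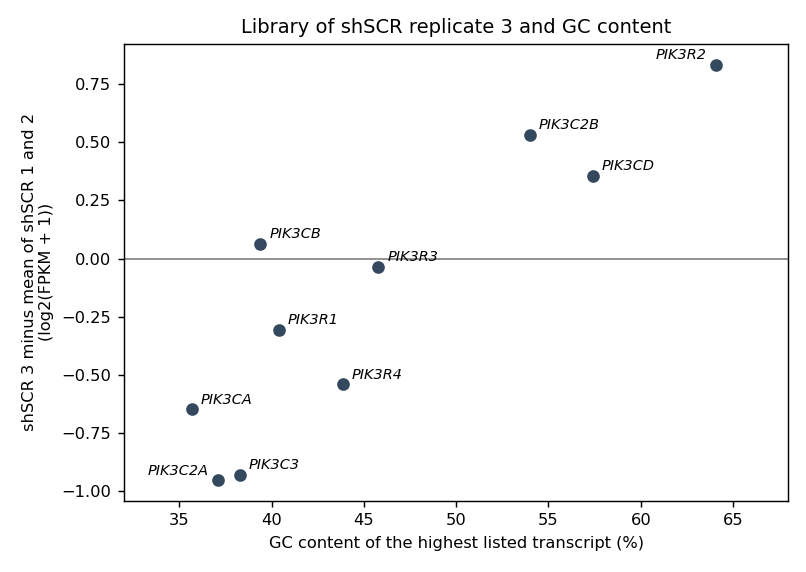
Difference of shSCR replicate 3 from the mean of shSCR replicates 1 and 2 in log2(FPKM + 1), against the GC content of the highest listed transcript, with 1 point per member gene. The difference is lowest for PIK3C2A (-0.95) at 37.1% GC and highest for PIK3R2 (0.83) at 64.1% GC.

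**Figure D5:**
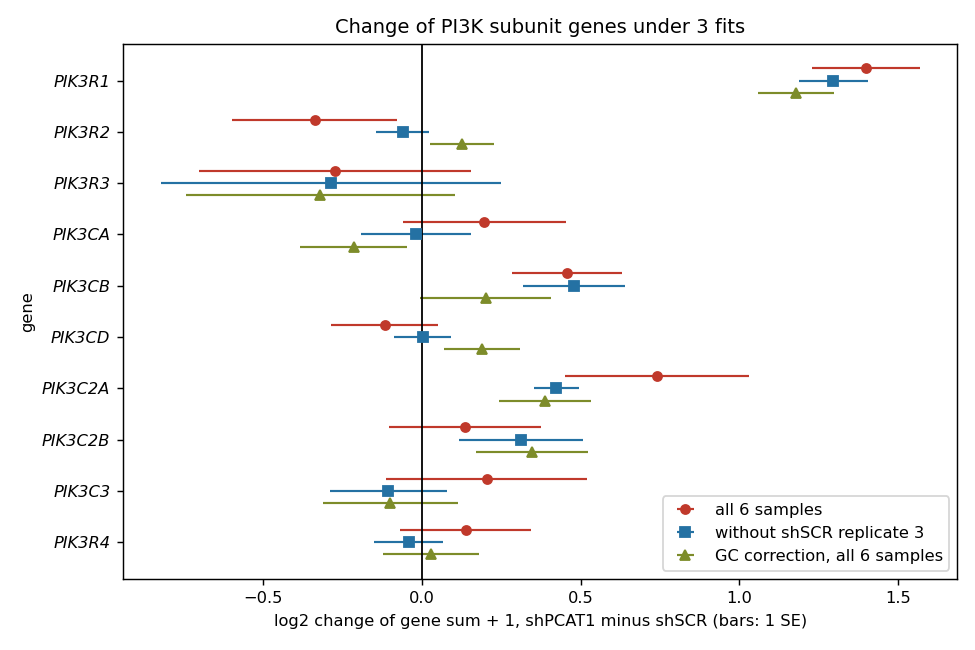
Log2 change of each member gene, shPCAT1 minus shSCR, with bars of 1 SE, from all 6 samples (circles), without shSCR replicate 3 (squares) and after the GC correction (triangles). PIK3R1 lies at 1.40, 1.30 and 1.18 in the 3 fits, and PIK3R2, PIK3R4, PIK3CA, PIK3CD and PIK3C3 lie on both sides of 0.

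The genes whose levels most resembled PIK3R1 were found by Pearson's r of log2(FPKM + 1) over the 6 samples among 10815 other genes. The 5 with the highest r were ENY2 (0.9992), TPR (0.9984), ADM5 (0.9983), DSP (0.9972) and SASS6 (0.9965), and 241 genes reached at least 0.95. The choice by r fixes that their groups separate as those of PIK3R1 do, so their log2 changes, 0.56 for ENY2, 0.71 for TPR, 2.28 for ADM5, 0.54 for DSP and 1.39 for SASS6, are given as a description.

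Genes around the PI3Ks were taken from 6 lists of textbook roles. In the fit with all samples 0 genes of any list were called. Of other PI3K subunits and regulators 2 of 6 were tested, both lower on average, and PIK3CG, PIK3R5 and PIK3R6, the subunits of the leukocyte class I enzyme, were not listed. PIK3IP1, a membrane protein that binds and restrains p110, averaged 1.35 ± 0.22 FPKM in shPCAT1 samples and 7.66 ± 5.79 FPKM in shSCR samples (SD, n = 3 each). Its groups did not overlap, as for 32.5% of all genes, and the change missed the threshold (log2 change -1.64, SE 0.52, limma adjusted p = 0.211, and -1.13 without shSCR replicate 3). PIK3AP1, an adaptor that binds p85 in B cells, had a log2 change of -0.77 (limma adjusted p = 0.316).

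Upstream of the class I enzymes, 25 of 31 receptor, adaptor and RAS genes were tested, 9 with a log2 change above 0 and 16 below, with a median of -0.06. EGFR, a receptor tyrosine kinase, stood at 27.9, 26.9 and 27.1 FPKM in shPCAT1 samples and at 6.89, 6.57 and 16.3 FPKM in shSCR samples (log2 change 1.49, SE 0.34, limma adjusted p = 0.128). FGFR4, another receptor kinase, averaged 0.862 ± 0.15 FPKM in shPCAT1 samples and 6.29 ± 4.4 FPKM in shSCR samples (log2 change -1.81, SE 0.41, limma adjusted p = 0.124, SD, n = 3 each). IRS2, the adaptor through which insulin and IGF receptors bind p85, averaged 1.03 ± 0.15 FPKM in shPCAT1 samples and 4.27 ± 2.07 FPKM in shSCR samples (log2 change -1.31, SE 0.30, limma adjusted p = 0.126, SD, n = 3 each). In these 3 genes the groups did not overlap and shSCR replicate 3 was the highest control. Of the 25 tested, the groups did not overlap for 1 higher and 8 lower, against 14.8% and 17.7% of all genes. Without it 1 gene of the list was called higher, EGFR (log2 change 1.87, limma adjusted p = 0.0035), and 3 lower, FGFR4 (-1.35, limma adjusted p = 0.0181), IRS2 (-1.01, limma adjusted p = 0.0301) and IGF1R (-0.60, limma adjusted p = 0.0336), against 3.65% of all genes higher and 4.29% lower in that fit. FGFR4 was also called lower after the GC correction (log2 change -1.36, limma adjusted p = 0.0448), where 1.21% of all genes were called.

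Downstream, 15 of 31 genes listed as effectors of PI3K lipids were tested, 4 with a log2 change above 0 and 11 below. CYTH3, an ARF exchange factor that binds PIP3, averaged 16.1 ± 0.22 FPKM in shPCAT1 samples and 9.47 ± 1.84 FPKM in shSCR samples (log2 change 0.72, SE 0.18, limma adjusted p = 0.148). ILK, integrin-linked kinase, averaged 20.9 ± 0.45 FPKM in shPCAT1 samples and 29.95 ± 1.57 FPKM in shSCR samples (log2 change -0.50, SE 0.13, limma adjusted p = 0.158, SD, n = 3 each). PLEKHA2, a PH-domain adaptor, had a log2 change of -0.80 (limma adjusted p = 0.243). Without shSCR replicate 3, CYTH3 was called higher and ILK and ARAP1 lower (limma adjusted p = 0.0274, 0.0358 and 0.0298), 1 and 2 of 15, against 3.65% of all genes higher and 4.29% lower. After the GC correction the log2 changes were 0.91 for CYTH3, -0.23 for ILK and -0.52 for ARAP1, and none was called.

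Among 21 tested of 27 phosphoinositide phosphatases, 10 had a log2 change above 0 and 11 below, and the median was -0.03. The smallest p-values belonged to the 5-phosphatases INPP5J (log2 change -0.44, limma adjusted p = 0.244) and INPP5K (-0.54, limma adjusted p = 0.276) and to MTMR14 (-0.46, limma adjusted p = 0.404). After the GC correction these changes were -0.01 for INPP5J, -0.26 for INPP5K and -0.19 for MTMR14. All 7 tested partners of VPS34 missed the threshold with all samples, without shSCR replicate 3 and after the GC correction, and the smallest p-values belonged to RUBCN, which restrains autophagosome maturation (log2 change -0.31), BECN1, the Beclin 1 gene (-0.27), and AMBRA1 (-0.35). Without shSCR replicate 3 these changes were -0.15 for RUBCN, -0.15 for BECN1 and -0.07 for AMBRA1. Among 11 tested of 12 other phosphoinositide kinases, PI4KA (-0.33), PIP5K1A (0.31) and PI4K2A (0.82) had the smallest p-values, and PI4K2A was called higher without shSCR replicate 3 (log2 change 1.39, limma adjusted p = 0.0166), the control in which it was highest. PIP5K1A had a change of 0.15 without that library, and PI4KA one of -0.08 after the GC correction. PI4K2A was not called after that correction (log2 change 1.03, limma adjusted p = 0.282).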

How the data were processed

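RNA of 6 LNCaP-AI samples (3 shPCAT1, 3 shSCR) was sequenced after poly(A) enrichment, from stranded single-end libraries per the study's methods. HISAT2 2.0.4 and hg19 stand in the submitters' processing notes, while the methods name another aligner with GRCh37 models. The deposited FPKM were computed by the authors with Ballgown, per protein-coding transcript. The authors' log2 group means, log2 fold changes, fold ratios, p-values and q-values deposited beside them were not used. Depth is unknown, and listed FPKM summed to 263353 to 303477 per sample. A listed 0 may be a failed estimate.

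FPKM were summed by gene name, and values with a mean of at least 1 FPKM were tested on log2(FPKM + 1), which understates the change of low genes, with limma 3.58.1 (trend, robust) in R 4.3.3, without covariates, over all genes, transcripts or isoform shares, with Benjamini-Hochberg adjustment. The planned test was used. The GC correction subtracted a loess fit (span 0.3) of each sample's deviation on GC content. Of the 19 member transcripts 17 passed the filter for the transcript test. With 3 samples a group the smallest p of an exact permutation test is 0.1, so none was run. Residues and GC content came from GENCODE models on GRCh37, and promoter windows from a RefSeq table built on GRCh38, placed by exact match. Overlaps were sought among the listed transcripts by their deposited positions, so genes that were not listed could not be found. The fits were also run on simulated data, and no result of that is given or relied on here.

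Members and lists were chosen with earlier results of these data known. All member genes are named, with all transcripts of PIK3R1 and the highest transcript of each other member. Further transcripts of other members, IGF1R and ARAP1 were named after their values were seen. For resemblance the 5 genes of highest r, and per list up to 3 genes of smallest p, are named. Alternatives covered the pseudocount, filter, scaling, quantile normalization, trend, share scale, replicate block, GC correction and each left-out library. Leaving out shSCR replicate 3 together with the GC correction was chosen after seeing the data. Basal markers summed to 1.27 to 1.65 FPKM in shPCAT1 samples and 1.59 to 2.51 FPKM in shSCR samples, and of the neuroendocrine list SYP alone was listed, at 0.821 to 0.980 FPKM in shPCAT1 samples and 0.524 to 0.853 FPKM in shSCR samples.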

Additional observations from a re-analysis of the deposited data

How the results depend on the processing

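The number of genes called (95 with all samples) was 56 with a pseudocount of 0.1, 53 with a filter at 5 FPKM and 633 without shSCR replicate 3 with the GC correction, and 4 to 851 when 1 library was left out, the highest without shSCR replicate 3. For transcripts (20) it was 9 with a pseudocount of 0.1, 13 without a filter, 5 with a filter at 5 FPKM, 13 with upper quartile scaling and 1 to 93 with 1 library left out, and for isoform shares (13) it was 4 with plain shares, 4 with a filter at 5 FPKM and 0 to 12. Members called numbered 0 to 2 genes, 0 to 0 transcripts and 0 to 0 shares with 1 library left out. Deviations of same-numbered samples from their group means correlated at -0.0238, -0.0142 and 0.0209 over 10825 genes, so no pairing by replicate number was seen. With 3 samples a group, 1 of them standing apart, these values cannot exclude a shared culture or batch. A replicate block left 2 genes called, also with the GC correction, with 0 transcripts, 0 shares and 0 member genes. PIK3R1 kept its direction there, with limma adjusted p = 0.224, and 0.211 with the GC correction.

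Signs turned as follows in genes that missed the threshold, and the cause was not tested. With the GC correction, the same with the block, and without shSCR replicate 3 with the GC correction, log2 changes were 0.13, 0.13 and 0.081 for PIK3R2, -0.21, -0.21 and -0.21 for PIK3CA, 0.19, 0.19 and 0.13 for PIK3CD and -0.10, -0.10 and -0.24 for PIK3C3, and in the last fit -0.090 for PIK3R4. PIK3CD-001 reached 0.020 with upper quartile scaling, and the share of PIK3C2B-001 -0.0016 as a plain share. With 1 library left out, log2 changes ran from -0.52 to 0.22 for PIK3R3, -0.041 to 0.24 for PIK3R4, -0.019 to 0.33 for PIK3CA, -0.19 to 0.0029 for PIK3CD, -0.095 to 0.31 for PIK3C2B and -0.11 to 0.37 for PIK3C3, and from -0.96 to 0.15 for PIK3R3-001, -0.15 to 0.28 for PIK3C2B-001 and -0.26 to 0.019 for PIK3CD-001. PIK3CA-001, PIK3R4-001 and PIK3C3-001, the only listed transcripts of their genes, ran over the same ranges. Share changes on the arcsine scale ran from -0.066 to 0.047 for PIK3R1-002, -0.035 to 0.23 for PIK3R1-016, -0.067 to 0.038 for PIK3C2B-001, -0.085 to 0.073 for PIK3CD-001 and -0.14 to 0.30 for PIK3CB-001. PIK3R1 ran from 1.30 to 1.52. Without counts, the precision that depth gives cannot be stated.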
